A study of Mus musculus with 16 samples.

Results

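Cxcl13, the ligand, and Cxcr5, its receptor, are 2 of the 32285 genes counted in immune cells from B16 melanomas of 16 mice. They were taken by symbol from the gene list of all 8 lanes, and their levels use the cells kept after filtering. The pair was picked because Cxcl13 differed between anti-CD40 and isotype treatment in monocytes and macrophages of B2m-null tumours, so that contrast, and any other that uses the same B2m-null CD40 mice for Cxcl13 there, is given as a description with no p-value.

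C57BL/6J mice received 1000000 Bro4.1 B16 melanoma cells under the skin, either control cells or cells that lack B2m, the light chain of MHC class I. Each mouse was then injected intraperitoneally with 100 µg of an agonist antibody against CD40 or of a rat IgG2a isotype antibody on days 6, 9 and 12. Tumours were taken on day 14, CD45+ cells were enriched on magnetic columns, and cells of each mouse were tagged with a hashtag antibody and mixed with others of their group on a 10x lane (3' chemistry, version 3). Hashtags separated 5 control isotype mice, 2 control CD40 mice, 5 B2m-null isotype mice and 4 B2m-null CD40 mice. The control CD40 mice came from 1 pool run on 2 lanes as technical replicates, and the other groups had 2 pools each. A pool holds mice of 1 group only, so pool and group cannot be told apart. The sample labels write the knockout as the mouse's genotype while the series' design gives it to the implanted cells. In melanoma-like cells that came through the enrichment, B2m stood at 186 to 471 counts per 1000000 unique molecular identifiers (UMIs), or CPM, in the 4 B2m-null lanes and at 1080 to 2127 CPM in the 4 control lanes.

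CXCL13 is a secreted chemokine that draws cells carrying CXCR5 into B cell follicles of lymph nodes and spleen. Stromal cells of the follicle make most of it in those organs, and some tissue and body cavity macrophages make it elsewhere. CXCR5 is carried by mature B cells and follicular helper T cells, and by some memory-like CD8 T cells. Lymphotoxin and CD40 both signal through the non-canonical NF-kB pathway, in which the kinase MAP3K14 leads to processing of NFKB2 and release of dimers with RELB, and Cxcl13 is a classic target of those dimers.

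Cxcl13 (ENSMUSG00000023078) lies on chromosome 5 at 95956939-95961068 on the plus strand of GRCm38, where no other gene overlaps it. Cxcr5 (ENSMUSG00000047880) lies on chromosome 9 at 44511787-44526444 on the minus strand by RefSeq. Its GENCODE M21 model runs on to 44561877 and overlaps Bcl9l on the opposite strand, so reads in the overlap could be split between the genes if counting ignored strand, which is not given in the sources used here. The 250 bases before the start of Cxcl13, at chr5:95956689-95956938 (plus strand, GRCm38.p6, RefSeq), are shown because NF-kB dimers with RELB are known to act there. Capitals mark 2 matches that were searched for on both strands and do not overlap: GGAGANTT, the core of a variant NF-kB element described for this promoter, 113 to 106 bases before the start, and TATAAA, 46 to 41 bases before it.
Cxcl13 promoter: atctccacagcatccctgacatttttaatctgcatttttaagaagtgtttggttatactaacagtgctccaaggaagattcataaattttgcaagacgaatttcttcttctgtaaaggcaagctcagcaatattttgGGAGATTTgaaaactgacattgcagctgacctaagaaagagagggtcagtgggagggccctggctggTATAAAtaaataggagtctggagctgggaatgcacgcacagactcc
Of 32851 RefSeq promoter windows of the same length, 1312 (3.99%) hold GGAGANTT and 4063 (12.4%) hold TATAAA. GGAGANTT was found in 0 of 15 lymphotoxin and non-canonical NF-kB pathway genes with an entry and in 0 of 8 other lymphoid chemokine and chemokine receptor genes. It was found in 1 of 3 oxysterol guidance genes, Ch25h, in 1 of 12 follicular helper T cell genes, Icosl, and in 1 of 13 macrophage subset genes, Ctsk. A match describes these letters only.

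Lanes held 45985739 to 99264875 UMIs, with medians of 1715 to 4225 UMIs per barcode. After removal of hashtag doublets and poor cells, 91371 cells were kept, of which 74898 were assigned to a mouse, at 490 to 17781 cells per mouse. In 1 B2m-null isotype lane (replicate 1) only 27.1% of barcodes could be assigned, so its 3 mice are thinly covered. No pair of lanes shared more than 92 barcodes, 0.623% of the smaller lane. Classes were named from markers: Cd79a had a UMI in 77.0% of B lineage-like cells and in 0.277% of the other cells, and C1qa in 86.3% of macrophage-like cells and 25.9% of the others. Of the markers of follicular stroma and lymph node reticular cells, Cr2, Fcer2a and Ccl21a were at 0 in fibroblast-like cells. Ccl19 had a UMI in 18.1% of these cells and 0.0542% of the others, and Pdpn in 50.4% and 11.7%.

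Cxcl13 was a rare transcript that came mainly from macrophages. Before doublets and poor cells were removed, 1028 barcodes held 9312 Cxcl13 UMIs. The kept cells held 7192 Cxcl13 UMIs in 721 cells, and 90.6% of those UMIs were in monocytes and macrophages, 81.4% in macrophage-like cells alone. As a level, macrophage-like cells stood at 39.2 ± 60.4 CPM (SD over 8 lanes), neutrophil-like cells at 14.5 ± 40.1 CPM, fibroblast-like cells at 9.38 ± 11.5 CPM and monocyte-like cells at 7.08 ± 13.7 CPM. These neighbours overlap within their spread, since the high values came mainly from B2m-null CD40 lanes. As the 2 control CD40 lanes are 1 pool, the 8 lanes are not all separate. The neutrophil value rests on 1 cell, which held 59 of the class's 62 UMIs. CD8 T-like cells followed at 2.56 ± 2.36 CPM, and no Cxcl13 was read in endothelial-like cells.

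Monocytes and macrophages of B2m-null tumours under anti-CD40 held far more Cxcl13 than those of the other 3 groups. The 4 B2m-null CD40 mice stood at 174, 42.6, 82.3 and 122 CPM (mean 105 ± 56.2, SD). The 5 B2m-null isotype mice stood at 3.20, 10.2, 0, 3.48 and 2.94 CPM (3.97 ± 3.77), the 2 control CD40 mice at 14.5 and 4.65 CPM (9.58 ± 6.96), and the 5 control isotype mice at 0.342, 13.7, 2.91, 0.0531 and 1.80 CPM (3.77 ± 5.69). Every B2m-null CD40 mouse was above every mouse of the other groups, whose ranges overlapped each other. In the mouse with no Cxcl13 UMI, the depth allows a level of up to 2.27 CPM.

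**Figure D1:**
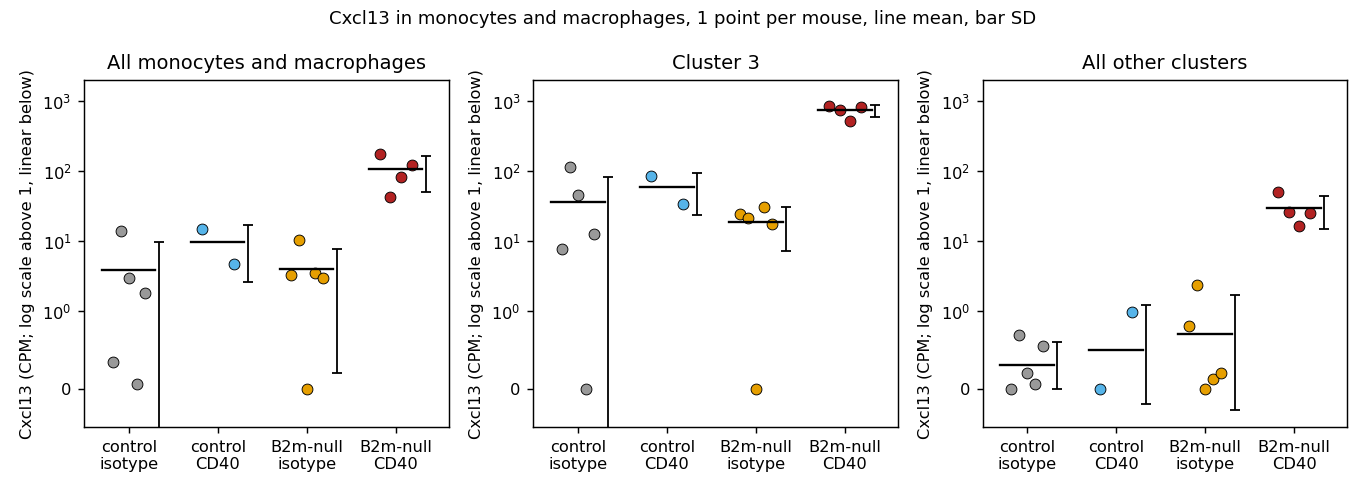
Cxcl13 level (CPM, axis linear near 0 and logarithmic above) in each mouse for all monocytes and macrophages, for cluster 3 and for the other monocyte and macrophage clusters, with the group mean and SD over mice. The 4 B2m-null CD40 mice lie above the others in the first panel, at 42.6 to 174 CPM.

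The share of these cells with a Cxcl13 UMI followed the same order, at 3.91% ± 1.3 in B2m-null CD40 mice, 0.780% ± 0.111 in control CD40, 0.520% ± 0.351 in B2m-null isotype and 0.283% ± 0.289 in control isotype. With cells thinned to 1000 UMIs the shares were 2.40%, 0.489%, 0.245% and 0.167%, in the same order. That step left out the shallower cells, which were 420 in B2m-null CD40, 1553 in control CD40, 428 in B2m-null isotype and 763 in control isotype mice.

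The fitted log2 difference between CD40 and isotype in B2m-null tumours was 5.13 (SE 0.73), and that between B2m-null and control tumours under CD40 was 3.62 (SE 0.87). Both describe the contrast the gene was picked on or its mice. In control tumours, where the comparison uses other mice, Cxcl13 did not pass the test between CD40 and isotype: the log2 difference was 1.48 (SE 0.86, edgeR adjusted p = 0.233), in a comparison in which 21.2% of 12485 genes tested were called. With 1 mouse or lane left out the log2 difference ranged from 0.65 to 3.59, and 22 of 24 such fits stayed short of the threshold. The 2 that passed both left out the same mouse. Without control isotype mouse 2, the highest of its group, the log2 difference was 2.78 (edgeR adjusted p = 0.0175), and without its whole lane, control isotype replicate 1, it was 3.59 (edgeR adjusted p = 0.0328). Between B2m-null and control tumours under isotype the log2 difference was -0.02 (SE 0.84, edgeR adjusted p = 0.995), where 7.53% of genes were called.

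Within the monocytes and macrophages, 1 cluster held most of the ligand. Cluster 3, whose leading genes were Cd209f, Retnla, Lyve1 and Cd163, made up 13.7% of these cells and held 74.0% of their Cxcl13 UMIs. Neither Cxcl13 nor Cxcr5 was used to form the clusters. Cluster 12, led by Ly6i, Upp1 and Nos2, held 8.70% of the UMIs, all 567 of them in B2m-null CD40 lanes. The cluster made up 23.1% of the monocytes and macrophages of B2m-null CD40 mice (8.54 to 46.7%) and 0.239 to 3.15% in the means of the other groups. Cluster 11, a cycling cluster with Mki67, held 7.6%, cluster 8, with Mmp12 and Gdf15, 5.16%, and cluster 2, with Vcam1 and Stab1, 2.93%. In B2m-null CD40 tumours the level was 659 CPM in cluster 3, 61.2 CPM in cluster 11, 40.1 CPM in cluster 12, 30.3 CPM in cluster 8 and 3.09 to 17.6 CPM in the other 6 clusters.

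**Figure D2:**
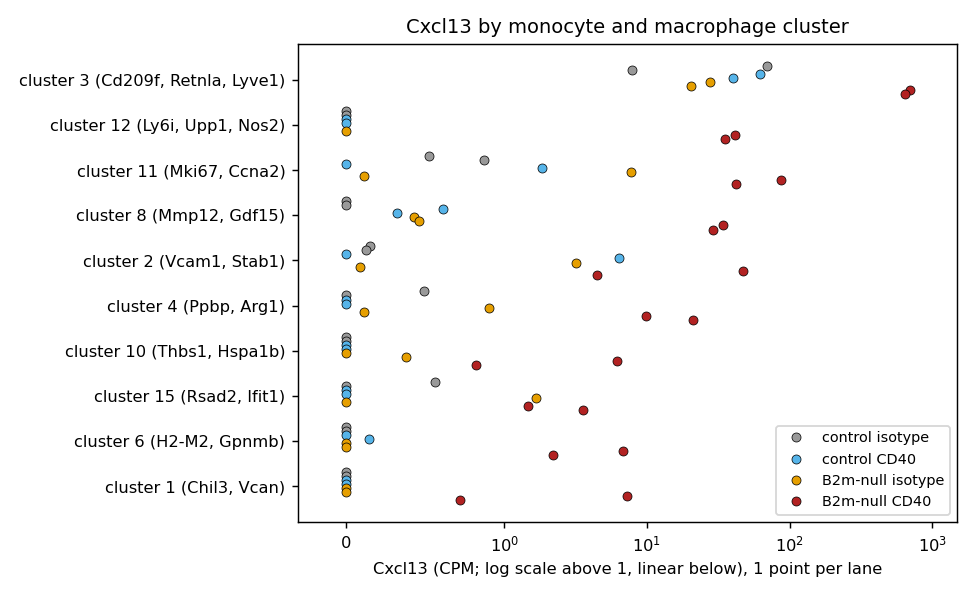
Cxcl13 level (CPM, axis linear near 0 and logarithmic above) in the 10 monocyte and macrophage clusters, with 1 point per lane that held at least 20 cells of the cluster, coloured by group. Cluster 3 is highest, at 659 CPM over the B2m-null CD40 lanes.

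The B2m-null CD40 mice were higher both inside and outside cluster 3. In cluster 3 they stood at 832, 743, 514 and 819 CPM (727 ± 147), against 24.4, 21.1, 0, 30 and 17.6 CPM in B2m-null isotype mice (18.6 ± 11.4). Control CD40 mice stood at 83.6 and 33.5 CPM (58.5 ± 35.5) and control isotype mice at 7.74, 114, 45.4, 0 and 12.3 CPM (35.8 ± 46.8). The control groups overlapped: isotype mouse 2 was above both CD40 mice, and isotype mouse 3 above CD40 mouse 2. Outside cluster 3 the B2m-null CD40 mice stood at 49.8, 25.7, 16.5 and 25.1 CPM (29.3 ± 14.3), and the means of the other groups were 0.299 to 0.696 CPM. As a share of the monocytes and macrophages, cluster 3 averaged 19.97% in B2m-null isotype mice (11.09 to 41.03%). In control isotype mice it averaged 7.977% (4.994 to 11.06%), in control CD40 mice 20.84% (20.38 to 21.3%) and in B2m-null CD40 mice 17.17% (4.246 to 22.35%). The isotype groups overlapped in level within cluster 3, while the ranges of their shares did not. The part of these shares in the differences over all monocytes and macrophages was not tested.

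A finer clustering split cluster 3 into cells with more and with less of the resident macrophage genes. Finer cluster 14 held Cd163, a haemoglobin scavenger receptor, at 247 CPM and Lyve1, a hyaluronan receptor, at 472 CPM. Finer cluster 4, led by Lyz1, Ltc4s and Tppp3, held them at 29.4 and 79.9 CPM. Mrc1, the mannose receptor gene, stood at 1874 and 916 CPM in these clusters, and Folr2, a folate receptor gene, at 747 and 494 CPM, so the difference was smaller for both. Cluster 3 was made up differently in each group, which is given to read its levels and not as a result, since the genes that form the clusters differ between groups. Finer cluster 14 gave 81.7% of its cells in B2m-null isotype and 70.1% in control isotype tumours, but 26.5% in B2m-null CD40 and 8.53% in control CD40 tumours, where finer cluster 4 gave 70.4% and 90.1%.
In finer cluster 14 the B2m-null CD40 mice reached 1476, 1689, 1241 and 1917 CPM (1581 ± 289). The 2 control CD40 mice stood at 329 and 269 CPM (299 ± 42.1), above all 5 control isotype mice at 0, 123, 48.3, 0 and 13.2 CPM (37.0 ± 52.2) and all 5 B2m-null isotype mice at 0 to 30 CPM (18.8 ± 11.5). The control CD40 against isotype difference was 262 CPM, with an exact two-sided permutation p of 0.0476, the smallest this design can give, and an adjusted p of 0.286 over 6 such tests. In finer cluster 4 the B2m-null CD40 mice stood at 274, 332, 165 and 348 CPM (280 ± 82.6), the control CD40 mice at 28.9 and 14.7 CPM, and mice of the isotype groups at 0 to 18.9 CPM. Both finer clusters were thus higher in every B2m-null CD40 mouse than in any other mouse. These finer clusters were looked at after the values in cluster 3 were seen.

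**Figure D3:**
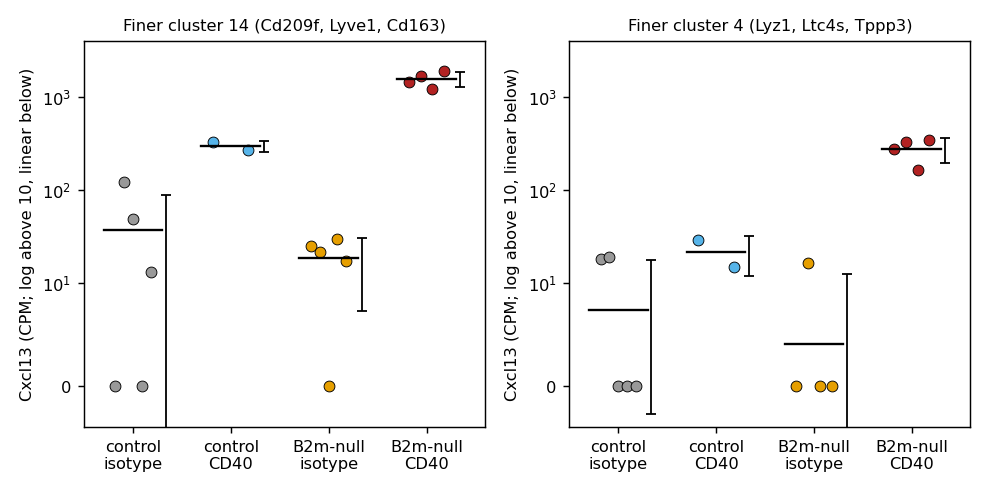
Cxcl13 level (CPM, axis linear near 0 and logarithmic above) per mouse in finer clusters 14 and 4, which together make up most of cluster 3, with the group mean and SD. In finer cluster 14 the 2 control CD40 mice, at 329 and 269 CPM, lie between the isotype mice and the B2m-null CD40 mice.

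A small number of cells carried most of the transcript. Of the 721 cells with a UMI, 50.4% held 1 UMI, while 152 cells with at least 10 UMIs held 83.4% of all Cxcl13 UMIs, and the highest held 312. Of those 152 cells, 135 came from B2m-null CD40 tumours, 8 from B2m-null isotype, 6 from control CD40 and 3 from control isotype. In B2m-null CD40 tumours 91 of the 135 were in cluster 3, 11 in cluster 11, 9 in cluster 12 and 8 in cluster 8. Per 10000 kept cells, 242 held at least 1 UMI in B2m-null CD40 tumours, against 37.4 in B2m-null isotype, 34.1 in control CD40 and 20.6 in control isotype. Cells with at least 10 UMIs numbered 64.6, 3.65, 2.38 and 1.29 per 10000. With the highest cell of each mouse left out, a step added after the data were seen, the B2m-null CD40 mice still stood at 122, 35.3, 73.2 and 100.3 CPM.

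**Figure D4:**
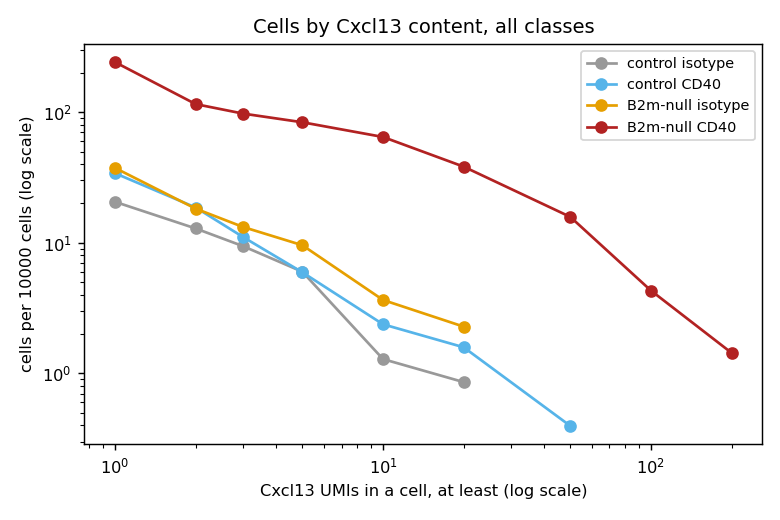
Number of cells per 10000 kept cells (logarithmic axis) that held at least the number of Cxcl13 UMIs on the x axis (logarithmic), by group. B2m-null CD40 tumours lie highest at each count, with 242 cells at 1 UMI or more and 64.6 at 10 or more.

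Within cluster 3 of the B2m-null CD40 lanes, cells with Cxcl13 carried more Cd163 and Lyve1 than their neighbours, but not more of every resident macrophage gene. Cd163 stood at 255 CPM over the 191 cells with a Cxcl13 UMI and at 56.4 CPM over the 1344 without, a ratio of 4.52 (2.18 and 5.61 in the 2 lanes). Lyve1 had a ratio of 1.96 (1.48 and 2.2). Mrc1 had a ratio of 1.09 (0.973 and 1.13), Fcrls 0.99 (0.852 and 1.02), and Folr2 1.50 (1.07 and 1.65). Of the 18 lymphotoxin and non-canonical NF-kB genes, 14 had over 3 UMIs in both kinds of cell, and 12 of those had ratios of 0.815 to 1.19, with 0.862 for Relb, 1.19 for Nfkb2 and 1.19 for Cd40. Traf3, which restrains the pathway, had a ratio of 0.59, but 1.11 in 1 lane and 0.401 in the other, and Tnf one of 0.456, with 0.855 and 0.302. Arg1, which breaks down arginine, was lower in the positive cells, with a ratio of 0.445 (0.410 and 0.456). Ctsk, a lysosomal protease, stood at 113 against 15 CPM, yet only in the second lane was it higher, at a ratio of 9.86, and in the first it stood at 13.1 against 16.3 CPM. Cells are not replicates and positive cells were deeper (median 4593 against 3232 UMIs), so these ratios carry no test. Of the 191 positive cells, 119 were in finer cluster 14, where 29.3% of cells held Cxcl13. Another 70 were in finer cluster 4, where 6.5% did and where Cd163 and Lyve1 were lower. The part of this mix in the ratios was not tested.

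Cxcl13 was low in most classes outside the monocytes and macrophages. In B2m-null CD40 tumours B lineage-like cells stood at 3.83 CPM, CD4 T-like at 4.69, CD8 T-like at 3.64, NK-like at 3.65 and regulatory T-like cells at 2.80 CPM. Melanoma-like cells stood at 0.319, mature dendritic-like at 1.87 and cDC2-like cells at 1.41 CPM, from 1 UMI each, and cDC1-like and endothelial-like cells held none, which allows up to 4.50 and 10.3 CPM. The share of cells with a UMI was 1.05% in CD8 T-like and 0.893% in melanoma-like cells. The part of free RNA from other cells in these values was not tested. Fibroblast-like cells stood at 26.3 CPM from 62 UMIs, against 1.76 to 7.37 CPM in the other groups, but their 2 lanes stood at 34 and 8.45 CPM and single isotype lanes reached 13.4 and 14.6 CPM, so the groups overlapped. Of cells outside monocytes and macrophages that held a Cxcl13 UMI, 42.1% also held at least 2 of the macrophage and monocyte genes C1qa, C1qb, Lyz2 and Csf1r, against 22.6% of cells without, at median depths of 4797 and 2223 UMIs. The part of that admixture in the values was not tested.
In CD8 T-like cells, a fit looked at after the values were seen, Cxcl13 fell by 4.11 on the log2 scale between isotype and CD40 in control tumours (SE 1.32, edgeR adjusted p = 0.0173, where 42.4% of 9777 genes were called). It rests on 16 UMIs in the isotype mice, 11 of them in mouse 2, against 2 UMIs in the CD40 mice. Without control isotype mouse 2 the change was -2.55 (edgeR adjusted p = 0.122), and it also missed the threshold without control CD40 mouse 2 (edgeR adjusted p = 0.112) or control isotype replicate 1 (edgeR adjusted p = 0.181). As a description, the log2 difference was -0.46 between CD40 and isotype in B2m-null tumours. Between B2m-null and control tumours under CD40 it was 4.485. Mean levels were 4.07 CPM in control isotype, 0.0786 in control CD40, 4.55 in B2m-null isotype and 3.48 CPM in B2m-null CD40 mice. The low group was therefore control CD40.

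Cxcr5 was rare and highest in B cells. It was read as 294 UMIs in 281 of the kept cells, and 1 cell held both genes. B lineage-like cells stood at 18.1 ± 11.3 CPM (SD over 8 lanes), mature dendritic-like cells at 6.14 ± 4.04, T-like cells of no further type at 3.66 ± 4.11, regulatory T-like cells at 2.18 ± 2.35, CD4 T-like cells at 1.66 ± 4.42 and CD8 T-like cells at 1.04 ± 0.913 CPM. Each T class overlaps its neighbours in that order within its spread. The 2 control CD40 lanes are 1 pool, so the 8 lanes are not all separate. The CD4 value rests on 3 UMIs in 1671 cells, too few to compare groups. Macrophage-like cells stood at 0.0735 ± 0.0705 CPM, and no Cxcr5 was read in fibroblast-like, endothelial-like or melanoma-like cells.
As a share of cells with a UMI, Cxcr5 was in 6.17% of B lineage-like cells (63 of 1021), 3.14% of mature dendritic-like cells and 0.410% of CD8 T-like cells. In macrophage-like cells, which lack the receptor and serve as background, it was in 0.0387% (10 of 25812), although these cells were deeper, with a median of 4846 against 2046 UMIs in B lineage-like cells. Because B cells were few, the UMIs split about evenly, with 75 in mature dendritic-like, 69 in CD8 T-like and 68 in B lineage-like cells.

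**Figure D5:**
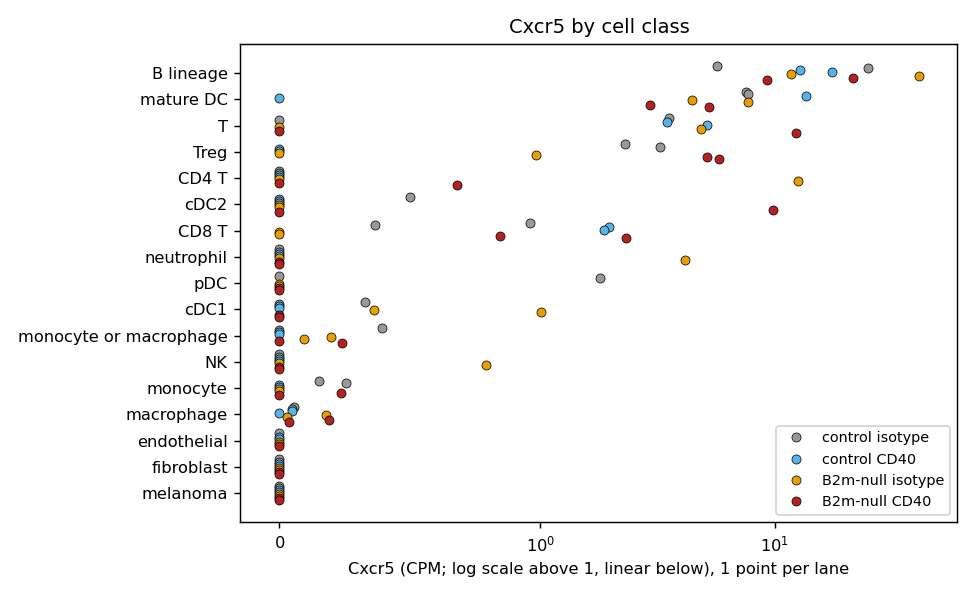
Cxcr5 level (CPM) by cell class, with 1 point per lane coloured by group. B lineage-like cells are highest, with a mean of 18.1 CPM over 8 lanes, and macrophage-like cells lie near 0.

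At the finer clustering Cxcr5 stood at 19.7 to 51.4 CPM in B-like cells of the 4 groups, and at 0 to 15.3 CPM in plasma-like cells, which lose CXCR5 as they mature. The 0 came from 23 control isotype cells, whose depth allows up to 36.5 CPM. In B2m-null isotype tumours 8.07% of plasma-like and 6.87% of B-like cells had a UMI, while in every other group the plasma-like share was the lower. Jchain, which links antibody units in plasma cells, was in 2 of the 63 B lineage-like cells with Cxcr5, 3.17%, and in 18.6% of those without. Per mouse with at least 20 B lineage-like cells, Cxcr5 stood at 20, 22.5, 6.12 and 10.6 CPM in B2m-null CD40, at 21.8 and 46.3 CPM in B2m-null isotype, at 17.4 and 12.8 CPM in control CD40, and at 0, 26.4, 13.8 and 47.7 CPM in control isotype mice. Of the B2m-null isotype mice, mouse 5 was above all B2m-null CD40 mice and mouse 4 was below B2m-null CD40 mouse 2. The control CD40 mice lay inside the range of the control isotype mice. The B2m-null CD40 against isotype difference was -19.3 CPM (exact permutation p = 0.2, adjusted p = 0.4 over 8 tests). With 4 mice against 2 the smallest possible p is 0.0667. The CD40 against isotype difference in control tumours was -6.87 CPM (exact permutation p = 0.667), and that between B2m-null and control tumours under isotype was 12.1 CPM (exact permutation p = 0.6), each with an adjusted p of 0.667. Control isotype mouse 5 and B2m-null isotype mouse 5 each set a sign: without the first the control difference was 1.70 CPM, and without the other the isotype difference was -0.12 CPM.

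Mature dendritic-like cells, the migratory type that carries CCR7, were the other class with a clear Cxcr5 level. All 5 control isotype mice held it, at 9.49, 6.88, 7.48, 5.08 and 8.87 CPM, while B2m-null isotype mice stood at 2.61, 0, 0, 7.31 and 7.72 CPM. The difference of -4.03 CPM did not pass (exact permutation p = 0.0873, adjusted p = 0.233). Of the CD40 mice with at least 20 such cells, the control mouse stood at 10.4 CPM and the 2 B2m-null mice at 0, where the depth allows up to 33.1 and 24.8 CPM. The B2m-null CD40 against isotype difference was -3.53 CPM (exact permutation p = 0.381, adjusted p = 0.61). Cells of this class with Cxcr5 held B cell markers in 4.29% of cases and T cell markers in 21.4%, close to 3.84% and 22.4% of those without.

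In CD8 T-like cells Cxcr5 was read in all CD40 mice and in 2 of the isotype mice, whose cells were fewer. It stood at 3.39, 0.576, 2.59 and 1.89 CPM in B2m-null CD40 and at 1.82 and 1.97 CPM in control CD40 mice. Control isotype mice stood at 0, 0, 0.907, 0 and 0.891 CPM, and the 3 B2m-null isotype mice with enough cells at 0. The depth behind the zeros allows up to 1.56 to 4.33 CPM in control isotype and 1.70 to 23.9 CPM in B2m-null isotype mice, within or above the range of the CD40 mice. The control groups did not overlap, with a difference of 1.53 CPM (exact permutation p = 0.0476, the smallest possible, adjusted p = 0.229), and the B2m-null difference was 2.11 CPM (exact permutation p = 0.0571, adjusted p = 0.229). Cxcr5 was too low for the edgeR filter in every cell set. With no filter on low counts it was called in control tumours, at a log2 difference of 2.54 (edgeR adjusted p = 0.02), where 23.4% of all genes were called without the filter and 42.4% with it, and not in B2m-null tumours, at 5.53 (edgeR adjusted p = 0.0938). In control tumours cluster 7, led by Gzmf and Gzmb, held 1135 CD8 T-like cells under isotype and 1256 under CD40. Cluster 0 held 259 and 5217, and cluster 9 held 83 and 2635. Cxcr5 stood at 0.633 and 0.655 CPM in cluster 7 and at 3.64 (1 UMI) and 2.63 CPM in cluster 0. In cluster 9 it stood at 0, where the depth allows up to 12.5 CPM, and 2.2 CPM. The part of make-up in the difference was not tested. CD8 T-like cells with a Cxcr5 UMI held Tcf7, the transcription factor of memory-like T cells, in 49.3% of cases against 19.7% of those without, but their median depth was 3485 against 1770 UMIs. Among cells with at least 1000 and under 3000 UMIs the shares were 37.5% and 19.9%.

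The share of B lineage-like cells among haematopoietic cells did not differ past the threshold. It was 3.00, 1.75, 0.934 and 0.880% in B2m-null CD40 mice and 0.127, 0.80, 0.448, 1.22 and 3.14% in B2m-null isotype mice, which overlapped (difference 0.494 points, exact permutation p = 0.5, adjusted p = 0.516 over 3 tests). Control CD40 mice stood at 1.89 and 0.773% and control isotype mice at 0.394, 0.668, 0.685, 0.851 and 0.673%. CD40 mouse 1 lay above that range and mouse 2 within it (difference 0.676 points, exact permutation p = 0.0952, adjusted p = 0.286).

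Over all monocytes and macrophages, part of the lymphotoxin and non-canonical NF-kB genes were higher under CD40 in B2m-null tumours. Cluster 12 was 23.1% of these cells there and 0.239% under isotype, so changes within cells and in make-up cannot be told apart. Of the 18 lymphotoxin and non-canonical NF-kB genes, 16 were tested in monocytes and macrophages, and between CD40 and isotype in B2m-null tumours 8 rose and 1 fell, where 17.4% of all genes rose and 17.6% fell (35.1% called). The list's median log2 change was 0.46, against -0.02 over all genes. Cd40, the receptor the antibody binds, rose by 1.35 and Relb, the RELB subunit, by 0.91 on the log2 scale, and these 2 kept their calls with any 1 mouse or lane left out. Nfkb2, the partner of RELB, rose by 0.80 and Tnfrsf14, a receptor for LIGHT, by 0.77, while Chuk, the kinase that acts on NFKB2, fell by 0.29. Nfkb2 and Tnfrsf14 lost their calls without B2m-null CD40 replicate 1 (edgeR adjusted p = 0.279 and 0.265) or B2m-null isotype replicate 1, among others, and Chuk without either B2m-null CD40 mouse of replicate 2 or with that lane left out (edgeR adjusted p = 0.388). The count of genes that rose was 4 without B2m-null CD40 mouse 2, 2 without B2m-null CD40 replicate 1 and 5 without B2m-null isotype replicate 1.
In control tumours 1 of the 16 rose, Tnfrsf1b, a TNF receptor, by 0.66, where 21.2% of all genes were called. That call was lost without control CD40 mouse 1 (edgeR adjusted p = 0.0634), and 4 genes rose when either B2m-null CD40 lane was left out of the shared fit or with no filter on low counts, and 3 with the replicate block. Under CD40, B2m-null and control tumours differed by edgeR in 0 of the 16, where 8.93% of genes were called, with 3 at an unadjusted p under 0.05 and 0 called by DESeq2. Under isotype 2 of the 16 were lower in B2m-null tumours, Tnf at -1.0 and Cd40 at -0.90, where 7.53% of all genes were called. Both calls were lost without control isotype replicate 1 (edgeR adjusted p = 0.224 and 0.395) and without B2m-null isotype replicate 1, and 4 genes were lower without B2m-null isotype replicate 2.

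Other lists hold signals that place or feed B cells. Between CD40 and isotype in B2m-null tumours, where 35.1% of all genes were called, 1 of 4 chemokine genes, 3 of 4 B cell survival genes and 2 of 4 oxysterol genes were called. In control tumours, where 21.2% were called, the counts were 1, 0 and 2 of 4. Of the 9 lymphoid chemokine and receptor genes 4 could be tested in monocytes and macrophages, and Cxcl12, a stromal chemokine, rose by 2.13 between isotype and CD40 in B2m-null tumours (edgeR adjusted p = 0.0048), a call lost without B2m-null isotype replicate 2 (1.57, edgeR adjusted p = 0.123). Cxcl12 was low there, at means of 0.777 CPM under isotype and 1.85 CPM under CD40, and its part from other cells was not tested. In control tumours Cxcr4, its receptor, rose by 1.48, and it was lower in B2m-null than control tumours under CD40, at -0.96. Both Cxcr4 calls held with any 1 mouse or lane left out, but the call under CD40 was lost with the lane as the unit (-0.91, edgeR adjusted p = 0.0534).
Of the 4 tested B cell survival genes, Tnfsf13b, which encodes BAFF, rose by 2.44 in B2m-null tumours with any 1 mouse or lane left out. Tnfsf13, which encodes APRIL, rose by 0.56 and Tnfrsf13b, a receptor for both, fell by 0.48. Those calls were lost without B2m-null CD40 replicate 2 (edgeR adjusted p = 0.397 and 0.0514) or B2m-null isotype replicate 1 (0.063 and 0.0913). Mean Tnfsf13b levels were 3.77 CPM in control isotype, 3.67 in control CD40, 1.26 in B2m-null isotype and 4.38 CPM in B2m-null CD40 mice, so the low group was B2m-null isotype. That group was lower than control isotype by a log2 difference of -2.04, a call lost without control isotype replicate 1 (edgeR adjusted p = 0.0758).
All 4 oxysterol guidance genes were tested. Hsd3b7, which breaks down the guiding oxysterol, rose by 0.84 in control tumours, a call that held with any 1 mouse or lane left out. Ch25h, which makes 25-hydroxycholesterol, rose by 0.85 and Hsd3b7 by 0.41 in B2m-null tumours, and both calls were lost without B2m-null CD40 mouse 2 (edgeR adjusted p = 0.0882 and 0.0547). Gpr183, the oxysterol receptor, fell by 1.36 in control tumours and was higher in B2m-null than control tumours under CD40, at 1.89. Those calls were lost without either control CD40 mouse, at edgeR adjusted p of 0.0927 and 0.117 for the first and 0.0724 and 0.0887 for the other.

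The macrophage subset genes moved both ways in the mice where Cxcl13 was high. Of 19 tested between CD40 and isotype in B2m-null tumours, 5 rose and 5 fell, where 17.4% of all genes rose and 17.6% fell. Nos2, which makes nitric oxide, rose by 3.77, H2-M2 by 3.24, Saa3, an acute phase protein, by 2.67 and Cxcl9, a T cell attracting chemokine, by 2.14. Cluster 12, of which Nos2 is a leading gene, was 23.1% of these cells in the B2m-null mice given CD40 antibody, against 0.239% under isotype, so a change within cells and a change in the make-up of the set cannot be told apart here. Cd163 fell by 2.42, the iron exporter gene Slc40a1 by 2.30, Fcrls by 2.29 and Lyve1 by 1.83. Of the 10 calls, 4 in each direction held with any 1 mouse or lane left out. Lyve1 was lost without B2m-null CD40 replicate 2 (edgeR adjusted p = 0.122) or B2m-null isotype replicate 1 (edgeR adjusted p = 0.0789). In B2m-null tumours Cd163 over all monocytes and macrophages was thus lower under CD40, where Cxcl13 was higher, than under isotype. Within cluster 3 of the B2m-null CD40 lanes the cells with Cxcl13 held more Cd163 than those without. Against control CD40 mice Cd163 was not called lower, and under isotype it was higher in B2m-null than in control tumours.
In control tumours 3 rose and 4 fell, where 21.2% of all genes were called. Saa3 rose by 4.02, H2-M2 by 3.15 and Fcrls fell by 3.54, all with any 1 mouse or lane left out. Between B2m-null and control tumours under CD40, 2 of 19 were higher and 0 lower, where 8.93% of all genes were called. These were Fcrls at 2.97 and Spp1 at 1.59, and neither call held in every fit with 1 mouse or lane left out. Under isotype Cd163 was higher in B2m-null than in control tumours, at 1.78, and Cxcl9 was lower, at -1.73. Both calls were lost without control isotype replicate 1 (edgeR adjusted p = 0.155 and 0.25) or B2m-null isotype replicate 1 (0.0758 and 0.184).

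The follicular helper T cell genes were examined in CD4 T-like cells and in CD8 T-like cells, which held Cxcr5. In CD4 T-like cells of control tumours 9 of 15 were tested and 0 called between CD40 and isotype, where 2.88% of all genes were called. In CD4 T-like cells of B2m-null tumours, with 1 isotype mouse, the log2 difference of Tcf7 was -2.05. In CD8 T-like cells 13 of the 15 genes were tested. In control tumours 6 rose and 2 fell between isotype and CD40, where 20.4% of all genes rose and 22.0% fell. In the same fit 3 of 12 macrophage subset genes rose and 2 fell, Saa3 at 3.14 and Spp1 at -1.875 among them. What part macrophage transcripts have in the values of these cells was not tested. Tcf7 rose by 1.88 and Slamf6, a receptor of memory-like T cells, by 1.76, while Pdcd1, which encodes PD-1, fell by 1.02, all with any 1 mouse or lane left out. Cluster 7, which has Gzmb, Prf1 and Pdcd1 among its leading genes, held 1135 of these cells under isotype and 1256 under CD40. Cluster 0, led by Ccl5 and Gzmk, held 259 and 5217. Changes within CD8 T-like cells and in their make-up therefore cannot be told apart here. Il21, the cytokine of follicular helper T cells, rose by 3.00 and Tox2, a transcription factor, by 1.95, and Cd200 fell by 1.08. Il21 was lost without control CD40 mouse 1 (edgeR adjusted p = 0.0748) or control isotype replicate 2 (0.0511). Tox2 and Cd200 were lost without control CD40 mouse 2 (edgeR adjusted p = 0.0703 and 0.292) or control isotype replicate 1 (0.0507 and 0.163).
In CD8 T-like cells of B2m-null tumours, where 8.54% of genes were called, 2 of 12 macrophage subset genes rose and 1 fell. Nos2 at 3.29 and Mrc1 at -1.33 were among them. Of the follicular helper T cell genes 2 rose, Tox2 by 6.52 and Icos, a costimulatory receptor, by 1.06, and 2 fell, Cd200 by 1.43 and Pdcd1 by 0.86. None of the 4 edgeR calls held without B2m-null isotype replicate 2 (edgeR adjusted p = 0.386 to 0.631), the lane that gave most CD8 T-like cells of that group. With lanes as the units over all cells the Tox2 difference was 0.41 (edgeR adjusted p = 0.878). Make-up differed in B2m-null tumours too, with 393 cells in cluster 7 and 165 in cluster 0 under isotype, against 1320 and 2671 under CD40. Between B2m-null and control tumours under CD40, 1 of the 13 genes was higher and 3 were lower in CD8 T-like cells. There 12.8% of all genes were called, and none of these calls held in every fit with 1 mouse or lane left out. In B lineage-like cells of B2m-null tumours Cxcr4 was lower under CD40, at -1.78 (edgeR adjusted p = 0.0136), where 3.16% of genes were called. That call was lost without B2m-null isotype mouse 5 (edgeR adjusted p = 0.19) or B2m-null CD40 replicate 1 (edgeR adjusted p = 0.11).

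The genes whose level over the 16 mice was most like that of Cxcl13 in monocytes and macrophages were, of 9029 compared by Pearson correlation of log2(CPM + 1), Cav1 at 0.828, Slc13a3 at 0.821, Alas1 at 0.819, Lyz1 at 0.814, Dnaaf3 at 0.796, Cd37 at 0.787, Mmp9 at 0.778, S100a10 at 0.776, Lyz2 at 0.771 and Igkc at 0.765. The mice share their lanes and groups: about the group means the correlations were 0.110 to 0.543. Over 18 cell classes and 13355 genes, Cxcr5 was most like Ccr6 at 0.866, Ccr7 at 0.863, Oosp1 at 0.859, C1qtnf4 at 0.851, Pls1 at 0.820, Ffar1 at 0.817, Gm15411 and Gm47230 at 0.796, Fcmr at 0.777 and Pou2af1 at 0.773. Of these, Ccr7 was highest in mature dendritic-like cells, at 1505 CPM, and the other 9 in B lineage-like cells.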

How the data were processed

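The deposited files hold UMI counts per gene and cell, with hashtag counts in the same matrices, made by the authors with Cell Ranger 3.0.0 and bcl2fastq 2.20.0.422 on mm10, per the submitters' processing notes, with 1 matrix per lane. Of 116552 barcodes, 9794 were called hashtag doublets and removed, and 87812 were assigned to a mouse. No other doublet caller was run. The labels list 3 hashtags, and 6 of the 8 files hold 2. Cells with under 200 genes or over 10% mitochondrial counts were dropped. Cells were clustered in Python 3.11.15 with scanpy 1.11.5 (2000 variable genes without Cxcl13 and Cxcr5, 40 components, 20 neighbours, Leiden resolution 1), and clusters were named from marker lists. Counts were summed per mouse and cell set, with at least 20 cells, scaled to counts per 1000000 UMIs (CPM), and tested with edgeR 4.0.16 in R 4.3.3 (quasi-likelihood, TMM, filterByExpr, all 4 groups in 1 fit, Benjamini-Hochberg over all genes tested, threshold 0.05). Simulated data on 12485 genes were made for monocytes and macrophages, for CD40 against isotype in B2m-null tumours only. There 95% of genes changed 2-fold and 100% of those changed 4-fold were recovered. Recovery in the other contrasts, such as that in control tumours with fewer CD40 mice, was not simulated. Levels and shares were compared with exact two-sided permutation tests over mice. CPM of summed UMIs has no length scaling, so levels are compared between cells and not between the genes.

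The low-count filter removed Cxcr5 from every edgeR fit planned for it, so its levels per mouse were compared by permutation instead. The 2 members and the 6 gene lists were chosen with earlier results of these data known. Named genes are the 2 members, the 10 most like each by correlation, and up to 4 called genes per direction of each list; others named were chosen after their values were seen. Deviations of same-numbered pools had correlations of 0.0592, 0.157 and 0.139, so the numbers were not taken to pair the pools. Alternatives tried were DESeq2 1.42.0, other scaling, no filter, a stricter cell filter, lane as unit, finer clusters, thinned cells, a replicate block, and leaving out each mouse or lane.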

Additional observations from a re-analysis of the deposited data

Results flagged for a closer look

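Among 27 groups of 4 or 5 mice examined for a sample far from the others, 3 held one, where chance gives about 1 in 20. Control isotype mouse 2 stood at 13.7 CPM of Cxcl13 in monocytes and macrophages, and the other 4 mice of its group at 0.0531 to 2.91 CPM. The same mouse stood at 15.9 CPM in CD8 T-like cells, from 11 UMIs, against 0 to 2.67 CPM in the others. In finer cluster 4, B2m-null isotype mouse 2 stood at 16.5 CPM from 1 UMI, and the other 3 mice with enough cells at 0.

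Cxcl13 was also read in cells that no comparison uses. In unnamed cluster 5 the B2m-null CD40 lanes held 31.1 CPM, from 318 UMIs in 31 of 1211 cells, against 0.214 to 0.346 CPM in the other groups. Both T cell and myeloid transcripts were read in 56.7% of that cluster's cells. In unnamed cluster 25 they held 53.1 CPM, from 15 UMIs in 3 cells, against 0 to 5.83 CPM elsewhere.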

How the results depend on the processing

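The Cxcl13 differences of the B2m-null CD40 mice are given as a description. Over 34 alternatives each they ranged from log2 4.57 to 5.79 against B2m-null isotype and from 2.79 to 4.45 against control CD40. Cxcl13 was picked on the first contrast, and every B2m-null CD40 mouse was above every other mouse. Leaving out a mouse or lane could therefore not change the direction, so the kept direction is no support. In control tumours CD40 against isotype ranged from 0.65 to 3.59 with 1 mouse or lane left out (edgeR adjusted p 0.0175 to 0.756), past the threshold without control isotype mouse 2 (2.78) and without control isotype replicate 1 (3.59), and from 1.29 to 1.80 elsewhere (adjusted p 0.135 to 0.482). B2m-null against control under isotype, -0.02, changed sign with DESeq2 (0.0062), with the lane as unit (0.088, or 0.56 with all cells), with thinned cells (0.20), without the highest Cxcl13 cell of each mouse (0.22, chosen after seeing the data) and with the replicate block (0.23), was -1.25 with the stricter cell filter, and ranged from -0.78 to 2.10 with 1 mouse or lane left out. None of these passed the threshold, and the cause was not tested. The replicate block gave 5.05 and 1.60 (edgeR adjusted p = 0.192) for CD40 against isotype in B2m-null and control tumours. The difference in B lineage-like share between isotype groups ranged from -0.00535 to 0.749 points with 1 mouse left out, the lowest without B2m-null isotype mouse 5, and was 0.0803 points with the stricter cell filter. The CD40 difference in that share ranged from 0.119 to 1.23 points in control and from 0.0406 to 0.992 points in B2m-null tumours, where the stricter cell filter gave 0.649 points (exact permutation p = 0.0397, adjusted p = 0.0714). The leading cluster held 55.4% of Cxcl13 UMIs at the finer clustering, by its construction from smaller clusters.

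Counts of called genes in CD8 T-like cells of B2m-null tumours were 835, but 1297 with no filter and 1735 with the replicate block. In B lineage-like cells they were 142, but 298 with no filter and 17 with the block. In B lineage-like cells of control tumours they were 37, but 223 with no filter. In monocytes and macrophages no such count moved by over 1.5 times with other scaling, no filter, the replicate block or DESeq2. The other settings were not counted over all genes. Without control isotype replicate 1, 13 of 13 list genes called there between tumours under isotype lost their calls. With the lane as the unit, list genes called there lost their calls in 6 of 31 cases (9 with all cells, Cxcl12 among them) between CD40 and isotype in B2m-null tumours, 3 of 16 in control tumours, 7 of 13 between tumours under isotype and 5 of 5 under CD40. In B2m-null tumours 8 of 27 were lost with thinned cells, Relb (edgeR adjusted p = 0.0557), Birc3 (0.064) and Tnfsf13b (0.0914) among them, and 4 of 31 with the stricter cell filter. In CD8 T-like cells 8 of 9 lost theirs between CD40 and isotype in B2m-null tumours, 11 of 23 in control tumours and 8 of 8 between tumours under CD40. Cxcr5 in B lineage-like cells ranged with 1 mouse left out from -14.2 to 1.70 CPM in control tumours, from -31.5 to -7.02 CPM in B2m-null tumours and from -0.12 to 24.4 CPM between isotype groups. Depth limits Cxcr5: the edgeR fits planned for it gave no value, and other settings gave values only with no filter or where the filter let it pass. In B lineage-like cells with no filter, the log2 difference between CD40 and isotype was 0.01 in control and -0.90 in B2m-null tumours. Between B2m-null and control tumours under isotype it was 1.06, and none of these passed the threshold. No setting gave a value for CD4 T-like cells of control tumours.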
